A study of Homo sapiens with 6 samples.

Results

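The genes described here are tropomyosins and other actin-linked contractile genes, chosen by name: TPM1, TPM2, TPM4, TAGLN, MYL9, CNN2, CNN3, CALD1, FHL1 and TNNT3. All 10 were found by gene ID, among 26475 genes of the deposited table over all libraries. They were proposed with their levels in these libraries and earlier results of all 3 comparisons known, so their values are a description. Where the fit's calls on them are counted, the count describes genes chosen on those same values and is no independent test, and no p is given for them. The levels come from messenger RNA sequencing of lung cancer cells of human origin. The lines PC9, PC9-BrM4 and PC9-AMG have 2 libraries apiece, 6 in all, and MGS was the culture condition of every group. The PC9 line is an established lung adenocarcinoma line whose EGFR carries an activating mutation. The other lines are called derivatives here because their names contain PC9. What BrM4, AMG and MGS stand for is not spelled out in the labels, nor is the word mix that every sample description carries, nor whether a derivative is 1 clone or whether replicate libraries came from different cultures. The p-values below therefore measure the spread between libraries, which may be technical.

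Levels are in TPM, a length-normalised share of all transcripts, which has the same letters as the gene symbols of the tropomyosins but is always written after its number. Differences are between group means on the log2(TPM + 1) scale with the standard error (SE) of a limma fit over all 14627 tested genes. A gene was called where its Benjamini-Hochberg adjusted p in that fit was under 0.05. Depth in reads is unknown. At 1 TPM the median per-base coverage was between 0.606 and 0.822, and 13848 to 14171 genes per library reached 1 TPM. In bulk RNA, fewer cells of a type and less RNA per cell cannot be told apart.

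Tropomyosins are coiled-coil proteins that lie along the actin filament and set which motors and severing proteins reach it. Contraction in cells other than striated muscle is driven by myosin II, whose regulatory light chain is phosphorylated, while calponins, caldesmon and transgelin bind and stabilise the filament. Carcinoma cells use the same proteins in stress fibres and in the cortex, and many of the genes are textbook targets of serum response factor, which binds CArG boxes and some of whose coactivators are held by free actin.

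Cell type markers were checked first. All 9 epithelial markers, EPCAM and KRT19 among them, were tested genes, and they summed to 17441 to 17687 TPM in the PC9 libraries, to 13173 to 13771 TPM in PC9-BrM4 and to 15383 to 15865 TPM in PC9-AMG. Against PC9, limma called 5 of them lower (KRT7, KRT18, KRT19, CLDN4 and ELF3) and 1 higher (CLDN7) in PC9-BrM4, and 3 lower (KRT7, KRT19 and ELF3) in PC9-AMG. Of 8 smooth muscle markers, 7 stayed under 1 TPM in all libraries, and CNN1 and MYOCD were listed at 0. The summed smooth muscle level was 18.5 to 18.8 TPM in the PC9 libraries, 17.2 to 20.6 TPM in PC9-BrM4 and 19.8 to 26.6 TPM in PC9-AMG, nearly all of it SMTN. Of 9 fibroblast markers, 8 stayed under 1 TPM, with LUM, PDGFRA and THY1 listed at 0. Their sum, mostly COL1A1, was 9.38 to 11.2 TPM in the PC9 libraries, 16.4 to 18.1 TPM in PC9-BrM4 and 9.30 to 15.6 TPM in PC9-AMG. Of 13 striated muscle markers, 10 stayed under 1 TPM and MYH1, MYOD1 and MYOG were listed at 0. That list summed to 8.84 to 11.9 TPM in the PC9 libraries, 14.9 to 15.6 TPM in PC9-BrM4 and 7.02 to 7.14 TPM in PC9-AMG. Of the 3 that were tested, 2, CKM and TNNI2, were called higher in PC9-BrM4 against PC9 (9.89% of all tested genes were). The TNNI2 call was lost on omission of any 1 of the 6 libraries. In PC9-AMG against PC9-BrM4, 1 of the 3, TNNI2, was called lower (12.3% of all tested genes were). Of 7 astrocyte markers, GFAP and S100B were listed at 0 in all libraries and the sum, mostly ALDH1L1, was 22.4 to 23.7 TPM in the PC9 libraries, 20.7 to 23.5 TPM in PC9-BrM4 and 30.3 to 34.0 TPM in PC9-AMG. SLC1A3 was called higher in PC9-BrM4 than in PC9, where it was listed at 0 (log2 difference 1.90, limma adjusted p = 0.00178). In PC9-AMG against PC9-BrM4 the astrocyte calls went both ways. SLC1A3 was called lower (-1.31, limma adjusted p = 0.0110) and ALDH1L1 higher (0.68, limma adjusted p = 0.00570). The differences of SLC1A3 place it under 1 TPM on average in PC9-AMG. It thus passed the filter, at least 1 TPM in at least 2 libraries, only with PC9-BrM4. Both SLC1A3 differences follow in part from that filter. Of 8 microglia markers, 5, AIF1 and P2RY12 among them, were listed at 0, and the sum was 10.4 to 10.8 TPM in the PC9 libraries, 16.5 to 18.2 TPM in PC9-BrM4 and 13.0 to 16.4 TPM in PC9-AMG. ITGAM was called higher than in PC9 in both derivatives (0.96 and 0.79, limma adjusted p = 0.00746 and 0.0340). The 6 endothelial markers summed to 1.51 to 2.11 TPM over all libraries. The part of these marker levels in the results was not tested.

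Among the 10 genes, TPM1, TPM2, TAGLN, CNN3 and FHL1 were each highest in both PC9-BrM4 libraries, TPM4 and CNN2 were each highest in PC9 and lowest in PC9-AMG, and MYL9 and CALD1 differed little. TNNT3 was close to absent in PC9 and present in both derivatives. The fit called 6 of the 10 higher and 0 lower in PC9-BrM4 against PC9, where 9.89% of all tested genes were called higher and 6.45% lower. In PC9-AMG against PC9 it called 2 higher and 2 lower (3.67% and 3.82% of all tested genes), and in PC9-AMG against PC9-BrM4 it called 0 higher and 6 lower (6.31% and 12.3%). These counts restate the values by which the genes were chosen. The libraries of PC9-BrM4 and PC9 did not overlap for 8 of the 10, 6 higher and 2 lower (61.2% of all tested genes in either direction, 39.2% higher and 21.9% lower). For PC9-AMG and PC9 it was 8, 4 higher and 4 lower (59.8% in either direction, 24.8% higher and the rest, a larger share, lower). Between the derivatives it was 7, all lower in PC9-AMG (59.5% in either direction and 40.5% lower). The median log2 difference of the 10 genes was 1.04 in PC9-BrM4 against PC9, beside 0.09 for all tested genes. It was 0.01 in PC9-AMG against PC9, beside -0.05, and -0.52 in PC9-AMG against PC9-BrM4, beside -0.13. All 10 genes passed the filter of at least 1 TPM in at least 2 libraries, TNNT3 through the derivatives alone, so its difference from PC9 follows in part from the filter. Both derivatives are compared with the same PC9 libraries.

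**Figure D1:**
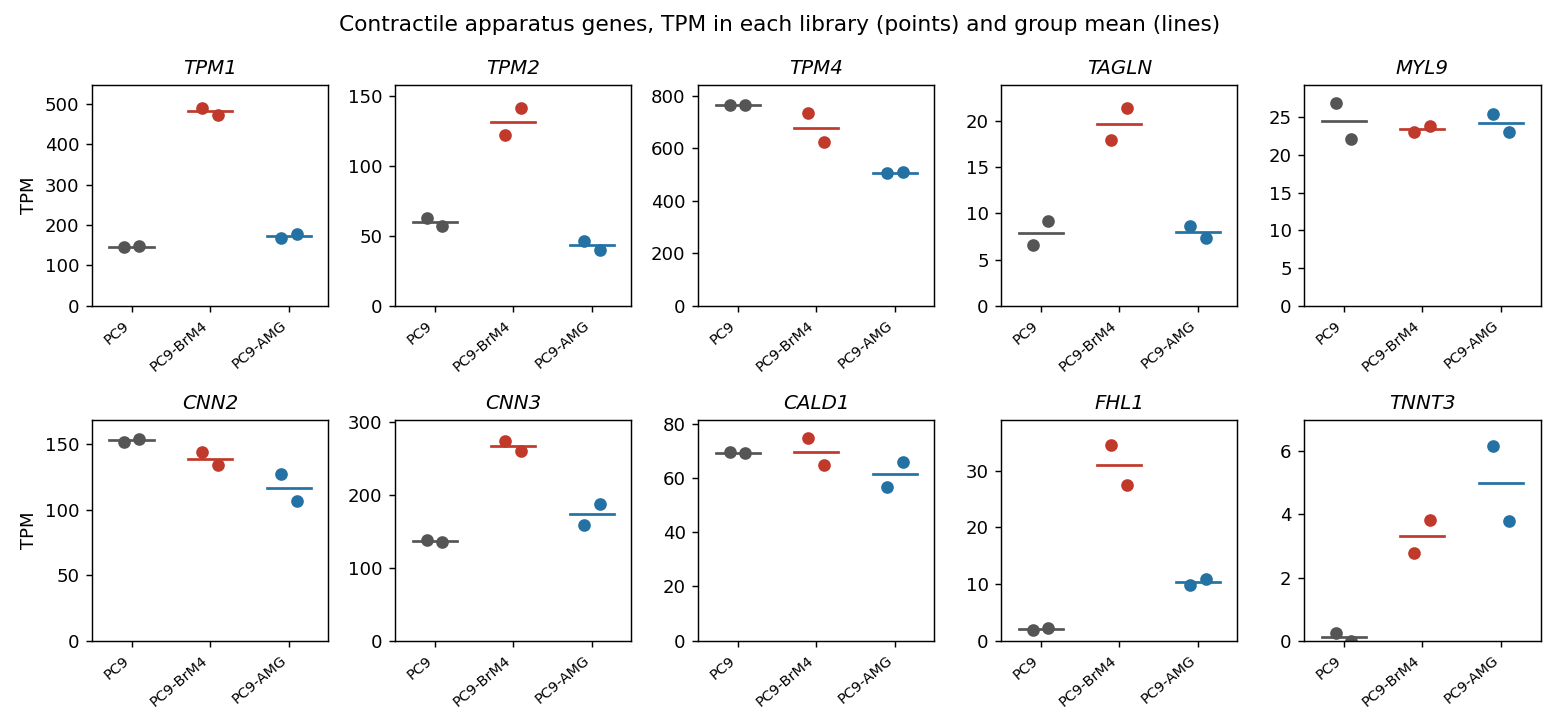
TPM (linear axis from 0) of the 10 genes in each of the 6 libraries (points), with the mean of the 2 libraries of each group as a line. TPM1 sits at 473 and 489 TPM in PC9-BrM4 and between 145 and 178 TPM in the other libraries, whereas MYL9 lies between 22.1 and 26.9 TPM throughout.

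Of the tropomyosins, TPM1 (chromosome 15, 63042639 to 63071914, plus strand, hg38) encodes the isoforms that mark stress fibres in many cell types. It was at 145 and 147 TPM in the PC9 libraries, 489 and 473 TPM in PC9-BrM4 and 168 and 178 TPM in PC9-AMG. The 3 groups did not overlap, PC9-BrM4 being far above both others and PC9-AMG slightly above PC9. The mean in PC9-BrM4 was 3.29 times that in PC9 (log2 difference 1.71, SE 0.08), and that in PC9-AMG 1.19 times (0.24, SE 0.08).

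TPM2 (chromosome 9, 35681993 to 35690056, minus strand) encodes beta-tropomyosin. It was at 62.6 and 57.1 TPM in PC9, 122 and 141 TPM in PC9-BrM4 and 46.1 and 40.2 TPM in PC9-AMG. The derivatives thus lay on opposite sides of PC9, with no overlap. The log2 difference from PC9 was 1.12 (SE 0.12, 2.19 times) in PC9-BrM4 and -0.46 (SE 0.12, 0.722 times) in PC9-AMG.

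TPM4 (chromosome 19, 16067507 to 16103003, plus strand), a non-muscle tropomyosin gene and the most abundant of the 10 in every group, was at 763 and 765 TPM in PC9, 732 and 624 TPM in PC9-BrM4 and 504 and 509 TPM in PC9-AMG. It was lower in each PC9-AMG library than in any other library. The log2 difference from PC9 was -0.59 (SE 0.09) in PC9-AMG and -0.18 (SE 0.09) in PC9-BrM4, where the 2 libraries lay further apart than those of the other groups.

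TPM3, the remaining tropomyosin gene and not one of the 10, was between 255 and 312 TPM and was not called in any comparison (limma adjusted p between 0.0921 and 0.879). With it, the 4 tropomyosin genes summed to 1235 ± 0.670 TPM (SD, n = 2) in PC9, 1592 ± 89.6 TPM in PC9-BrM4 and 983 ± 14.1 TPM in PC9-AMG. TPM4 made up 61.9% ± 0.164 of it in PC9, 42.5% ± 2.43 in PC9-BrM4 and 51.5% ± 0.387 in PC9-AMG (SD, n = 2). The share of TPM1 was 11.8% ± 0.121, 30.2% ± 0.972 and 17.6% ± 0.497 in the same order, and that of TPM2 4.85% ± 0.316, 8.27% ± 1.31 and 4.40% ± 0.487. TPM1 thus took a larger share in both derivatives than in PC9, and in PC9-AMG it did so while TPM2 and TPM4 were lower. The values are sums over the isoforms of each gene, so muscle and non-muscle isoforms were not separated.

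**Figure D2:**
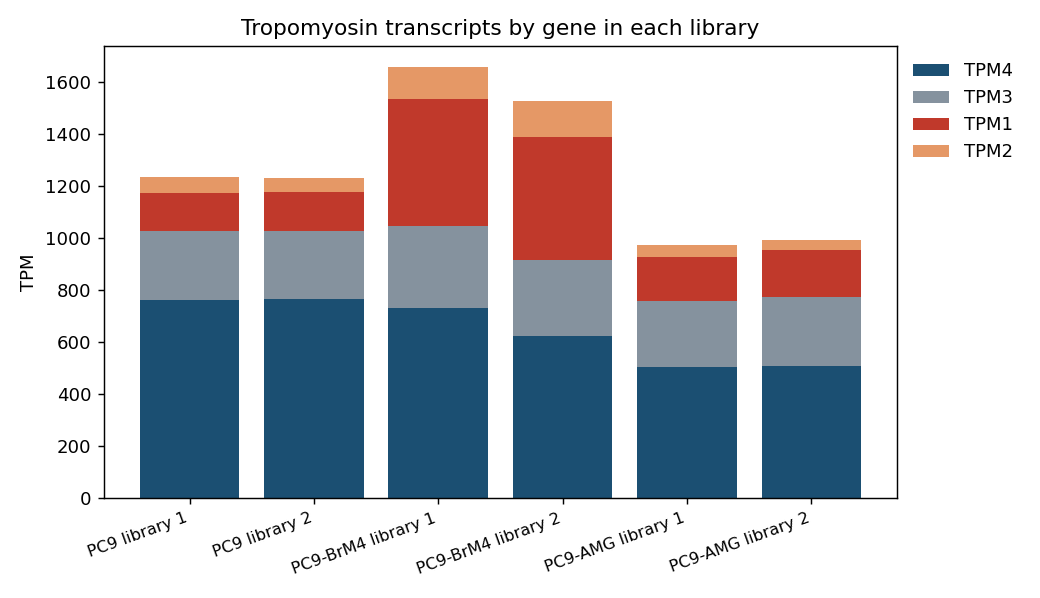
Stacked TPM (linear axis from 0) of the 4 tropomyosin genes in each of the 6 libraries. The pool is tallest in PC9-BrM4, where TPM1 makes up 30.2% of it on average, and shortest in PC9-AMG, where TPM4 is at 506 TPM on average.

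Promoter windows (250 bases before to 50 after a start site, RefSeq, GRCh38.p14) were held by the reference for 7 of the 10 genes: TPM1, TPM2, TPM4, CNN2, CNN3, CALD1 and FHL1. The window nearest the deposited gene start was searched on both strands for 5 motifs. The CArG box was in 2 of these 7 windows, those of TPM4 and CNN2, and in 1.29% of all 35116 windows. GGGCGG, the core of the GC box, was in 6 of 7 (45.0% of all windows), GGAATG, a TEAD motif, in 1 of 7 (14.0%), TGANTCA, an AP-1 motif, in 0 of 7 (7.71%) and TATAAA in 0 of 7 (11.5%). The tropomyosin stretches below, which end before the start site, are shown because these genes moved apart: capitals mark GGGCGG in TPM1 (chr15:63048339-63048488, plus strand; the 2 copies overlap) and TPM2 (chr9:35690057-35690206, minus strand; a second copy that spans the start is not shown), and the CArG box in TPM4 (chr19:16067340-16067399, plus strand). The TPM4 window also held GGGCGG, outside the stretch shown, so that motif was in the windows of all the tropomyosin genes shown. The TPM1 window lies 5850 bases downstream of the deposited gene start, at an internal start site.
TPM1: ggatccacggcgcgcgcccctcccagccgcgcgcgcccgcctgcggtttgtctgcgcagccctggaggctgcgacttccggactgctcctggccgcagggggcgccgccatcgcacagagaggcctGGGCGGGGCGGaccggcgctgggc
TPM2: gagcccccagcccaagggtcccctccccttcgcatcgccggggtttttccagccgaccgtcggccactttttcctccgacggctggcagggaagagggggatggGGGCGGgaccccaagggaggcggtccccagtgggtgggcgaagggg
TPM4: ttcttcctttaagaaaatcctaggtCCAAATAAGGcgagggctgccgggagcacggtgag

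The calponin genes also parted. CNN3 (acidic calponin; chromosome 1, 94896949 to 94927223, minus strand) was at 138 and 135 TPM in PC9, 274 and 261 TPM in PC9-BrM4 and 159 and 188 TPM in PC9-AMG. The groups did not overlap, and the order was PC9, PC9-AMG, PC9-BrM4. The log2 difference from PC9 was 0.97 (SE 0.10, 1.96 times) in PC9-BrM4 and 0.34 (SE 0.10) in PC9-AMG.

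CNN2 (neutral calponin; chromosome 19, 1026275 to 1039068, plus strand) was at 152 and 154 TPM in PC9, 144 and 134 TPM in PC9-BrM4 and 127 and 107 TPM in PC9-AMG. Both derivatives were below PC9 without overlap, by -0.13 (SE 0.10) and -0.39 (SE 0.10) on the log2 scale. GENCODE release 29 holds 11 pseudogenes named after CNN2, 1 after CNN3 and 1 after TPM4. The levels of these genes may depend on how shared reads were assigned, which was not examined. CNN1, the smooth muscle calponin gene, was listed at 0 in all 6 libraries. CNN3 made up 47.2% ± 0.695 of calponin TPM in PC9, 65.8% ± 0.401 in PC9-BrM4 and 59.6% ± 5.72 in PC9-AMG (SD, n = 2), so the more abundant gene was CNN2 in PC9 and CNN3 in both derivatives. The CArG box of the CNN2 window (chr19:1026494-1026553, plus strand), 89 bases before the start, is in capitals. The CNN3 windows held no CArG box, and the nearest CNN3 window held GGGCGG 5 times. The CNN2 window held GGGCGG as well, at 2 overlapping sites after the start.
CNN2: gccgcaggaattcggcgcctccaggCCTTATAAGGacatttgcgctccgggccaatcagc

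TAGLN (transgelin, an actin-bundling protein used as an early smooth muscle marker; chromosome 11, 117199324 to 117204792, plus strand, overlapped by LOC100652768 on the other strand) was at 6.54 and 9.16 TPM in PC9, 17.9 and 21.4 TPM in PC9-BrM4 and 8.69 and 7.36 TPM in PC9-AMG. PC9-BrM4 was above both other groups, which overlapped each other. Its mean was 2.5 times that of PC9 (log2 difference 1.23, SE 0.19), and the difference between PC9-AMG and PC9 was 0.04 (SE 0.19). Its paralogue TAGLN2, the transgelin gene of epithelial cells, was at 1188 and 1183 TPM in PC9, 822 and 856 TPM in PC9-BrM4 and 956 and 924 TPM in PC9-AMG. It fell in PC9-BrM4 (log2 difference -0.50, limma adjusted p = 0.00128) and in PC9-AMG (-0.33, limma adjusted p = 0.0232), the second of which was lost on omission of any 1 of the 4 compared libraries (highest adjusted p 0.233) and under median centring (0.178). TAGLN was 0.658% ± 0.156 of the transgelin pair in PC9 and 2.28% ± 0.217 in PC9-BrM4 (SD, n = 2), so it remained a minor part.

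CALD1 (caldesmon; chromosome 7, 134779413 to 134970729, plus strand), which blocks myosin from actin until it is phosphorylated or bound by calmodulin, was at 69.4 and 69.1 TPM in PC9, 74.5 and 64.7 TPM in PC9-BrM4 and 56.7 and 65.9 TPM in PC9-AMG. PC9-BrM4 overlapped both other groups, and PC9-AMG lay below PC9. The log2 differences from PC9 were 0.00 (SE 0.12) and -0.18 (SE 0.12).

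MYL9 (a regulatory myosin light chain gene typical of smooth muscle; chromosome 20, 36541484 to 36549823, plus strand, overlapped by DLGAP4-AS1 on the other strand) was at 26.9 and 22.1 TPM in PC9, 23.1 and 23.8 TPM in PC9-BrM4 and 25.4 and 23.0 TPM in PC9-AMG. All groups overlapped, with log2 differences of -0.06, -0.01 and 0.04 (SE 0.14 each) in the 3 comparisons. MYL9 was between 1.19% and 1.55% of the TPM of the regulatory light chain genes in every library. The rest was MYL12A and MYL12B, the non-muscle forms, which were not called (limma adjusted p between 0.0551 and 0.940).

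FHL1 (chromosome X, 136146702 to 136211359, plus strand) encodes a LIM-domain protein, abundant in muscle, that binds titin and signalling kinases. It was at 1.85 and 2.21 TPM in PC9, 34.5 and 27.4 TPM in PC9-BrM4 and 9.80 and 10.9 TPM in PC9-AMG. The groups were well apart, with PC9-AMG between PC9 and PC9-BrM4. The mean was 15.2 times that of PC9 in PC9-BrM4 (log2 difference 3.39, SE 0.17) and 5.09 times in PC9-AMG (1.90, SE 0.17). Its relative FHL2 was between 130 and 140 TPM in all libraries and was not called (limma adjusted p between 0.616 and 0.866). FHL1 went from 1.22% ± 0.151 of the TPM of FHL1, FHL2 and FHL3 in PC9 to 16.0% ± 2.44 in PC9-BrM4 and 5.53% ± 0.401 in PC9-AMG (SD, n = 2). RefSeq gave 12 windows for FHL1. The one at the deposited start held none of the 5 motifs. A CArG box was in the window of an internal start 50345 bases downstream (chrX:136196896-136196955, plus strand), shown with the box in capitals; the deposited values do not say which start was used.
FHL1: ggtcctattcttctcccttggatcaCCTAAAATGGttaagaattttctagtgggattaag

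TNNT3 (fast skeletal troponin T, the subunit that ties the troponin complex to tropomyosin; chromosome 11, 1919569 to 1938706, plus strand) was at 0.233 TPM in 1 PC9 library and listed at 0 in the other. It was at 2.79 and 3.84 TPM in PC9-BrM4 and 6.18 and 3.79 TPM in PC9-AMG. Both derivatives were above PC9, and they overlapped each other. The log2 differences of 1.95 and 2.40 (SE 0.27) depend on the pseudocount, since PC9 is near 0: with 0.1 in place of 1 they were 4.21 and 4.76.

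**Figure D3:**
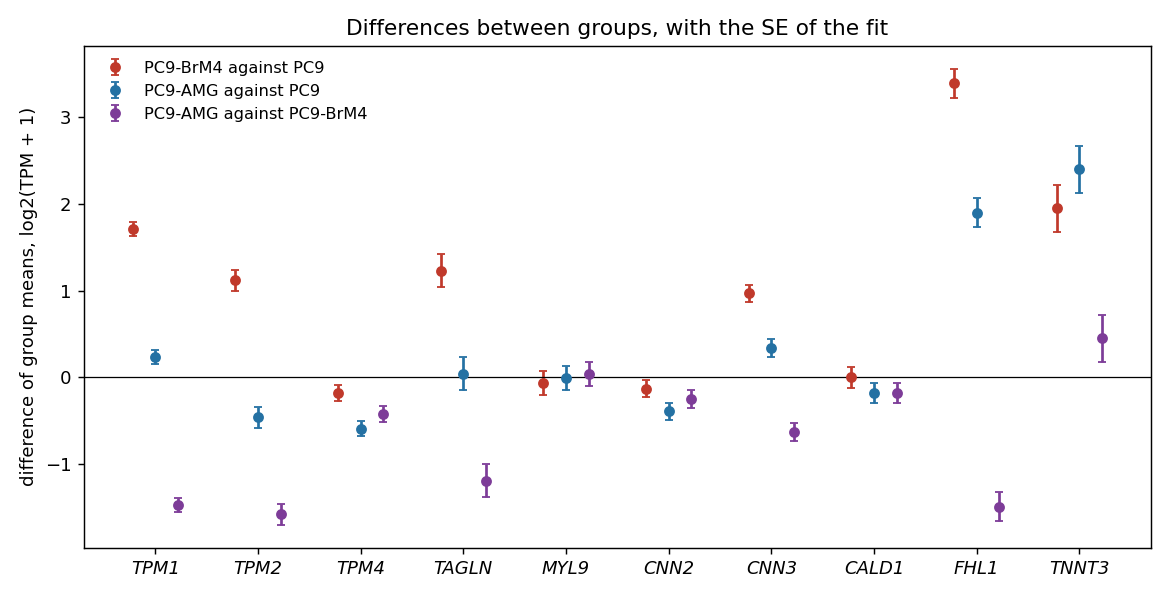
Difference of group means on the log2(TPM + 1) scale for the 10 genes in the 3 comparisons, with bars of 1 SE of the fit. FHL1 has the largest difference in PC9-BrM4 against PC9 (3.39) and TNNT3 in PC9-AMG against PC9 (2.40), while the values of MYL9 lie between -0.06 and 0.04.

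Levels per length could also be ordered within each group. TPM4 was the highest of the 10 and TNNT3 the lowest in each group. In PC9 no neighbours in the order overlapped. In PC9-BrM4 CNN2 and TPM2 overlapped, at 139 ± 7.29 and 131 ± 13.5 TPM (SD, n = 2), and in PC9-AMG CNN3 and TPM1, at 174 ± 20.8 and 173 ± 7.38 TPM. FHL1 stood below TAGLN in PC9, at 2.03 ± 0.260 TPM, and above MYL9 and TAGLN in PC9-BrM4, at 30.9 ± 5.03 TPM. Set against PC9-BrM4 directly, PC9-AMG was lower in log2 terms by -1.47 for TPM1, -1.58 for TPM2, -1.19 for TAGLN and -1.49 for FHL1. The difference was smaller for CNN3 (-0.63), TPM4 (-0.42), CNN2 (-0.25) and CALD1 (-0.18), and TNNT3 was the one gene above MYL9 (0.04), at 0.45.

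The rest of the actin and myosin machinery did not follow one direction. Of 119 tested genes in 8 lists of actins, myosins, troponins, regulators, crosslinkers, LIM-domain partners, turnover factors and serum response factor with its coactivators, limma called 16 higher and 21 lower in PC9-BrM4 against PC9, with a median log2 difference of 0.01. That is 37 of 119, where 16.3% of all tested genes were called in either direction. In PC9-AMG against PC9 it called 2 higher and 10 lower (7.49% of all genes), with a median of -0.12, and in PC9-AMG against PC9-BrM4 13 higher and 20 lower (18.6%), with a median of -0.10. Of the 37 calls in PC9-BrM4, 13 held under 3 other scalings and when each of the 6 libraries was left out in turn, 3 higher and 10 lower. Of the 12 in PC9-AMG against PC9, 0 did. In the first comparison 15 genes were called when PC9 library 1 was omitted, 16 when PC9 library 2 was, and 19 when PC9-BrM4 library 1 was. In the second, omission of PC9 library 1 or PC9-AMG library 2 left 0 limma calls, that of PC9 library 2 left 1 and that of PC9-AMG library 1 left 3. Between the derivatives, 17 were called when PC9-BrM4 library 1 was omitted. Median centring changed the splits to 6 higher and 22 lower, 2 and 2, and 23 and 8. It shifted the median of all tested genes from 0.087 to -0.017, from -0.051 to 0.019 and from -0.131 to 0.042.

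**Figure D4:**
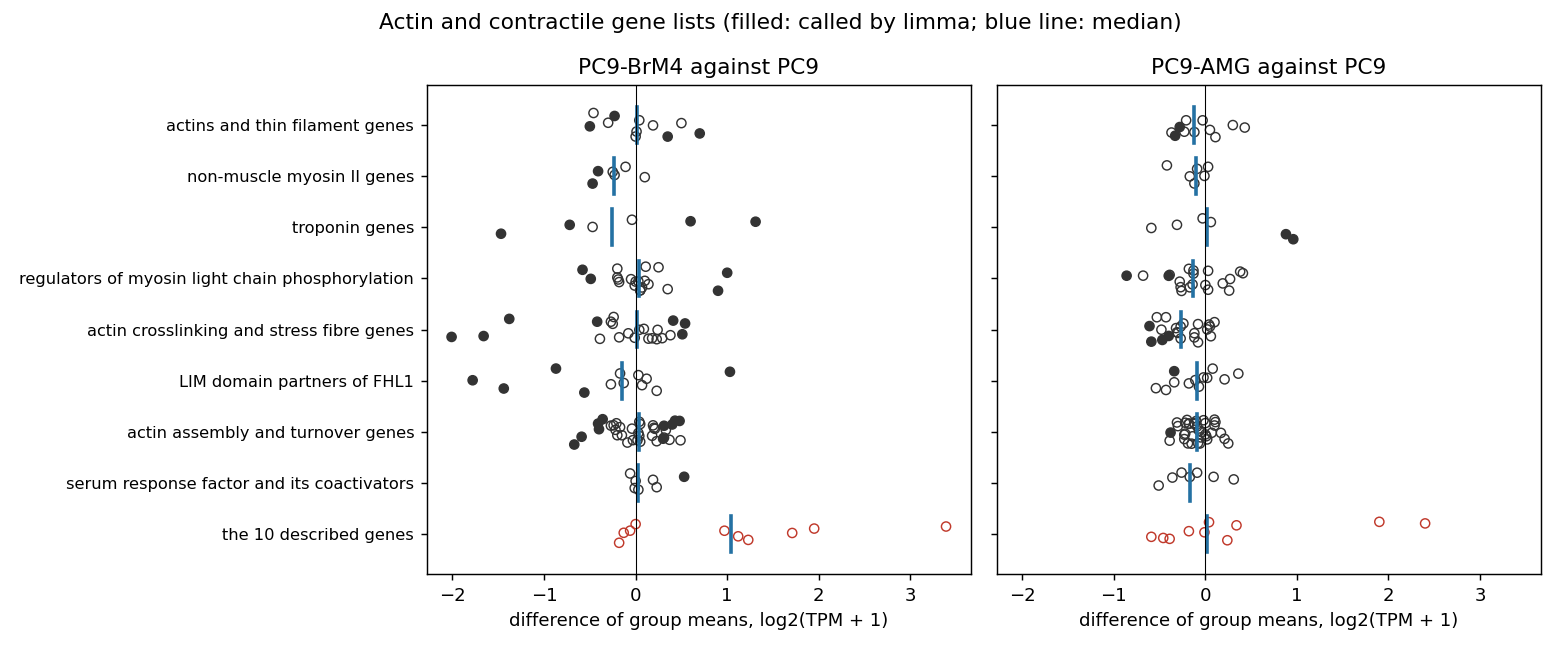
Difference of group means on the log2(TPM + 1) scale (x axis) for the tested genes of 8 actin and contractile lists and the 10 genes described here, in PC9-BrM4 (left) and PC9-AMG (right) against PC9. Each point is a gene, filled where limma called it, blue lines are list medians, and the 10 genes are drawn as red outlines whatever their call. The list medians lie between -0.25 and 0.04 on the left, beside 1.04 for the 10 genes, which were chosen with these values known.

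Among actins and thin filament genes, 2 of 11 tested genes were higher and 2 lower in PC9-BrM4. TMOD3, a tropomodulin that caps the pointed end of filaments coated with tropomyosin, rose from 86.9 and 84.1 TPM to 153 and 127 TPM (log2 difference 0.70, limma adjusted p = 0.00500; 0.0556 without PC9-BrM4 library 1). In PC9-AMG it was at 66.3 and 79.3 TPM, lower than in PC9-BrM4 (-0.93, limma adjusted p = 0.00106), a call kept without each library in turn. ACTB, beta-actin, rose from 5655 and 5759 TPM to 7269 and 7261 TPM in PC9-BrM4 (0.35, limma adjusted p = 0.00436), and the call was lost without PC9 library 1 or 2 (highest adjusted p 0.0869) and under median centring (0.241). ACTG1, gamma-actin, fell in PC9-BrM4 (-0.23, limma adjusted p = 0.0312) and in PC9-AMG (-0.28, limma adjusted p = 0.0256). Each of these ACTG1 calls was lost on omission of any 1 of the 4 compared libraries (highest adjusted p 0.312 and 0.287) and under median centring (0.115 and 0.316), and the second under quantile normalization too. ACTA2, smooth muscle actin, stayed between 4.52 and 6.21 TPM and was not called in any comparison (limma adjusted p between 0.724 and 0.993).

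Of 6 tested non-muscle myosin II genes, 0 were higher and 2 lower in PC9-BrM4. MYL6, the essential light chain, fell from 1573 and 1536 TPM to 1042 and 1201 TPM (log2 difference -0.47, limma adjusted p = 0.00586; 0.0579 without PC9 library 1). MYL6B fell by 0.41, limma adjusted p = 0.0259, a call lost on omission of any 1 of the 4 compared libraries (highest 0.306). MYH9, the main heavy chain, was between 404 and 774 TPM and was called lower in PC9-AMG than in PC9-BrM4 (-0.52, limma adjusted p = 0.0424), a call lost without PC9-BrM4 library 1 or PC9-AMG library 2 (highest adjusted p 0.310), under median centring (0.140) and after rescaling without the 100 highest genes (0.0606). Among 20 tested regulators of light chain phosphorylation, 2 were higher and 2 lower in PC9-BrM4. The lower ones were DAPK2 (log2 difference -0.58, limma adjusted p = 0.0190) and PPP1R12A (-0.49, limma adjusted p = 0.0310). The DAPK2 call was lost on omission of any 1 of the 4 compared libraries. That of PPP1R12A was lost without PC9 library 1 or 2 or PC9-BrM4 library 2. DAPK2 was also lower in PC9-AMG (-0.86, limma adjusted p = 0.00884), a call lost without PC9 library 1 or 2 or PC9-AMG library 2. DAPK1, a death-associated kinase that can phosphorylate myosin light chain, rose from 51.2 and 51.6 TPM to 113 and 94.5 TPM (1.0, limma adjusted p = 0.000551), and held without each library in turn. MYLK, myosin light chain kinase, was low, at 0.316 and 0.357 TPM in PC9 against 1.49 and 1.52 TPM in PC9-BrM4 (0.90, limma adjusted p = 0.0359). The MYLK call was lost on omission of any 1 of these 4 libraries and under median centring (limma adjusted p = 0.0628). MYLK passed the filter of at least 1 TPM through the PC9-BrM4 libraries alone, so this difference follows in part from the filter.

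The other troponin genes moved in both directions. In PC9-BrM4, 2 of 6 tested were higher and 2 lower, and in PC9-AMG 2 were higher and 0 lower. The 2 in PC9-AMG were TNNC1 and TNNT2. The TNNT2 call (log2 difference 0.88, limma adjusted p = 0.0473) was lost on omission of any 1 of the 4 compared libraries. It was also lost with a pseudocount of 0.1 or 0.5, with no filter and from the table over all libraries. TNNT1, slow skeletal troponin T and the most abundant of them, was at 350 and 384 TPM in PC9, 198 and 251 TPM in PC9-BrM4 and 394 and 368 TPM in PC9-AMG. It was lower in PC9-BrM4 (log2 difference -0.72, limma adjusted p = 0.00295) and was not called in PC9-AMG (0.06, limma adjusted p = 0.802). TNNI3, cardiac troponin I, fell from 25.7 and 26.6 TPM to 8.52 and 9.05 TPM in PC9-BrM4 (-1.47, limma adjusted p = 7.44e-05). TNNC1, the calcium-binding subunit of slow muscle, rose from 3.62 and 6.23 TPM to 12.4 and 14.3 TPM in PC9-BrM4 (1.31, limma adjusted p = 0.00331) and to 10.8 and 9.60 TPM in PC9-AMG (0.96, limma adjusted p = 0.0303). The rise in PC9-AMG was called without PC9 library 2 and lost without each of the other 5 libraries (highest adjusted p 0.246).

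Crosslinkers and LIM-domain proteins included the 3 largest falls in PC9-BrM4 among the tested genes of the 8 lists, those of LCP1, PDLIM3 and FLNC. LCP1, L-plastin, was at 139 and 143 TPM in PC9, fell to 35.5 and 33.0 TPM in PC9-BrM4 (log2 difference -2.01, limma adjusted p = 1.92e-06) and was at 111 and 103 TPM in PC9-AMG. FLNC, the muscle filamin, fell from 83.2 and 94.9 TPM to 32.0 and 23.5 TPM in PC9-BrM4 (-1.66, limma adjusted p = 0.000888). SYNPO, synaptopodin, fell by 1.38 (limma adjusted p = 0.00244). In the crosslinker list as a whole 3 of 22 tested genes were higher and 4 lower in PC9-BrM4, and in PC9-AMG 0 were higher and 4 lower. Of 12 tested LIM-domain genes, 1 was higher and 4 lower in PC9-BrM4. PDLIM3 fell by 1.78 (limma adjusted p = 0.000554) and CSRP2 by 1.44 (limma adjusted p = 0.00106), while PDLIM2 rose by 1.03 (limma adjusted p = 0.000226). All 6 calls named here in PC9-BrM4 were kept without each library in turn.

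In the list of 35 actin assembly and turnover genes, 5 were higher and 5 lower in PC9-BrM4, and in PC9-AMG 0 were higher and 1 lower. TMSB4X, thymosin beta-4, which holds free actin monomers, fell from 5237 and 5322 TPM to 3348 and 3674 TPM in PC9-BrM4 (log2 difference -0.59, limma adjusted p = 0.000431). GSN, gelsolin, which severs filaments, was higher in PC9-BrM4 (0.43, limma adjusted p = 0.00855) and lower in PC9-AMG (-0.38, limma adjusted p = 0.0300). Neither GSN call held without PC9 library 1 or 2, or without PC9-BrM4 library 1 for the first and PC9-AMG library 2 for the second (highest adjusted p 0.105 and 0.261), and both were lost under median centring (0.0754 and 0.113). Of serum response factor and its coactivators, 1 of 7 tested was higher in PC9-BrM4 and 0 were lower. SRF was at 13.5 and 16.1 TPM in PC9, 22.8 and 20.6 TPM in PC9-BrM4 and 20.4 and 16.7 TPM in PC9-AMG. Its call in PC9-BrM4 (0.53, limma adjusted p = 0.0430) was lost under all 3 other scalings and on omission of any 1 of the 4 compared libraries (highest adjusted p 0.328). The actin-sensing coactivators, listed as MKL1 and MKL2, were not called (limma adjusted p between 0.0887 and 0.985).

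The genomic surroundings of the 10 genes were described with the 5 tested genes on either side. Next to CNN3, LOC729970, which lies 805 bases beyond the 5′ end of CNN3 on the opposite strand, was called higher in PC9-BrM4 (log2 difference 1.09, limma adjusted p = 0.00220) and lower in PC9-AMG than in PC9-BrM4 (-0.91, limma adjusted p = 0.00567). Both calls were kept without each library in turn. The other 9 neighbours of CNN3 were not called in PC9-BrM4 against PC9. Around FHL1, VGLL1 was called higher in that comparison (0.39, limma adjusted p = 0.0305) and 0 of 10 neighbours lower, with a median of 0.21. Around TPM1, CA12 was called lower (-0.76, limma adjusted p = 0.0239) and 0 of 10 higher. TAGLN had 2 neighbours called higher (SIK3 by 0.81 and PAFAH1B2 by 0.47) and 0 lower. Each of these 4 calls was lost without 1 or more libraries: VGLL1 without any of the 4 compared (highest adjusted p 0.201), CA12 without PC9 library 1 or 2 or PC9-BrM4 library 2 (0.184), SIK3 without PC9 library 1 or PC9-BrM4 library 1 (0.151) and PAFAH1B2 without PC9 library 1 or 2 or PC9-BrM4 library 1 (0.171). Around TPM4, 3 of 10 neighbours were called lower and 0 higher in PC9-AMG against PC9 (CYP4F3, UCA1 and KLF2), with a median of -0.32. All 3 calls were lost on omission of any 1 of the 4 compared libraries (highest adjusted p 0.125, 0.125 and 0.301). TPM2 had CA9 called lower in PC9-AMG against PC9-BrM4, a call lost under median centring, from FPKM and without the variance trend, and MYL9 and CNN2 had 0 of 10 neighbours called in the comparison in which each differed most. Of the 10 neighbours of CALD1, AKR1B1, AKR1B10 and AKR1B15 were called lower in PC9-BrM4 against PC9, while CALD1 differed by 0.00. The log2 difference of AKR1B10 was -2.07 (limma adjusted p = 1.15e-06). The AKR1B1 call was lost without PC9 library 1. WDR91 was called higher in the same comparison (0.61, limma adjusted p = 0.0444). Its call was lost on omission of any 1 of the 4 compared libraries and under all 3 other scalings. In PC9-AMG against PC9-BrM4, where CALD1 differed most, the 3 AKR1B genes were called higher and 0 neighbours lower. The AKR1B1 call there was lost without any 1 library except PC9-BrM4 library 2.

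TNNT3 lies on the short arm of chromosome 11 between TNNI2, fast skeletal troponin I, and the imprinted gene H19, at 80.6 and 75.6 kb between the lower boundaries of the genes. In PC9-BrM4 against PC9, H19 rose by 5.32 (limma adjusted p = 1.05e-06), SYT8 by 0.92 (0.00527) and TNNI2 by 0.60 (0.0383). CTSD was called lower in that comparison (-0.43, limma adjusted p = 0.0109), a call lost on omission of any 1 of the 4 compared libraries. The TNNI2 call was lost on omission of any 1 of the 6 libraries (highest adjusted p 0.345) and that of SYT8 without PC9-BrM4 library 2 (0.0501). In PC9-AMG against PC9, where TNNT3 was 2.40 higher, H19, SYT8 and TNNI2 were at 0.70, -0.43 and -0.59. None of these 3 was called there (limma adjusted p = 0.0784, 0.141 and 0.0651). TNNT3 thus had no neighbour called higher in PC9-AMG, where 2 of 10, CTSD and TH, were called lower. The CTSD call was lost without PC9 library 1 or 2 or PC9-AMG library 2 (highest adjusted p 0.0953), and that of TH on omission of any 1 of the 4 compared libraries (0.320).

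**Figure D5:**
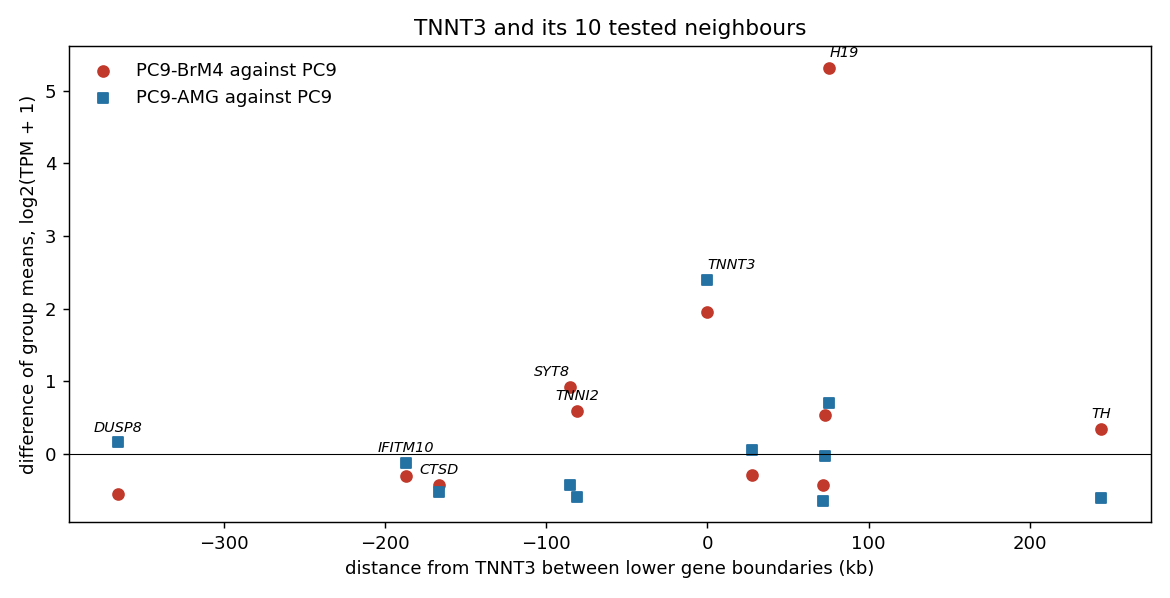
Difference of group means on the log2(TPM + 1) scale (y axis) for TNNT3 and its 10 tested neighbours against distance from TNNT3 in kb between lower gene boundaries (x axis), in PC9-BrM4 (circles) and PC9-AMG (squares) against PC9. H19 stands at 5.32 in PC9-BrM4 and at 0.70 in PC9-AMG, where TNNT3 is at 2.40.

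Likeness of pattern was measured by Pearson's r of log2(TPM + 1) over the 6 libraries, among the 1082 tested genes whose group means span at least 1 on the log2 scale, as do those of TPM1, TPM2, TAGLN, FHL1 and TNNT3. The libraries fall into 3 groups, so r mostly repeats the order and spacing of 3 means, and no p is given. The genes most like TPM1 were C1orf110 (r = 0.9996), MFAP3L (0.9990) and TMEM45A (0.9978). C1orf110 was listed at 0 in both PC9 libraries and was at 11.3 and 9.68 TPM in PC9-BrM4. Closest to TPM2 were AMDHD2 (0.9964), CKB (0.9941) and HERC2P7 (0.9922), of which CKB, brain-type creatine kinase, was at 209 and 243 TPM in PC9-BrM4 and at 68.8 and 61.0 TPM in PC9-AMG. For TAGLN they were KCNF1 (0.9928), SDPR (0.9877) and NTSR1 (0.9867). For FHL1 they were FAM133A (0.9987), the growth factor gene BMP7 (0.9963) and CARD16 (0.9961). For TNNT3 they were COL9A2 (0.9834), SNORD43 (0.9828) and CTPS1 (0.9803), SNORD43 being a small-RNA gene that mRNA libraries measure poorly.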

How the data were processed

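Per the labels' protocols, TRIzol was used for RNA extraction and a strand-preserving TruSeq kit for the mRNA libraries. The authors used HISAT2 2.1.0 and StringTie 1.3.4d with hg38, per the submitters' processing notes; annotation, read length and filters are not given in the sources used here. Each library has a deposited table of TPM (the main unit), FPKM (an alternative) and coverage, the per-base signal computed by the authors, per the file headers. The deposited table over all libraries holds TPM of 26475 genes, 98.9% equal to the library tables within 0.001 TPM. TPM of genes with several rows was summed; each of the 10 genes has 1 row.

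The 14627 genes that reached 1 TPM in 2 or more libraries entered one limma fit (version 3.58.1, R 4.3.3). It modelled log2(TPM + 1) by group in all 6 libraries, with a variance trend (3 residual and 6.81 prior degrees of freedom), two-sided. The script was tested on simulated data. The 10 genes and all lists were chosen with earlier results of these data known. Genes named beyond the 10 came from this rule: up to 3 called genes per list and comparison with the largest differences, 12 genes whatever their values (TPM3, ACTB, ACTG1, ACTA2, MYH9, MYL6, MYL12A, MYL12B, CNN1, TAGLN2, SRF and FHL2), neighbours called in the comparison in which a gene differed most (5 tested genes on either side), and the 3 genes most alike in pattern. MKL1, MKL2, SYT8, H19, WDR91, PPP1R12A and the cell type markers with their calls were named after their values were seen. Not every gene the rule gives is described. MRTFA and MRTFB were found as MKL1 and MKL2 through RefSeq synonyms. Alternatives were 3 scalings, pseudocounts of 0.1 and 0.5, no filter and a filter at 5 TPM, FPKM, moderation without trend or robust, the replicate block, use of the table over all libraries or of only the 4 libraries compared, and omission of each library in turn. The result of 1 marker list is not reported here.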

Additional observations from a re-analysis of the deposited data

Results flagged for a closer look

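Some genes lay on opposite sides of PC9 in the derivatives, with both PC9-BrM4 libraries above and both PC9-AMG libraries below both PC9 libraries. Of the 10 genes this held for TPM2, with log2 differences from PC9 of 1.12 and -0.46. The gene was chosen on these values, so the fit's call between the derivatives is no independent test of this difference and no p is given.

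The reverse, PC9-BrM4 below and PC9-AMG above PC9, held for 2 of the 119 other contractile and actin genes tested (1.68%, beside 2.94% of all 14627 tested genes). Of these, limma called 0 in PC9-AMG against PC9-BrM4, beside 2.21% of all tested genes with the reverse and a call. The pattern seen in TPM2 held for 12 of the 119 (10.1%, beside 8.29%). With a limma call in PC9-AMG against PC9-BrM4 as well, it held for 9 (7.56%, beside 5.50%). The pattern already sets the derivatives apart, so the call between them uses the values that picked the genes and is no independent test. Over all tested genes, 1212 had the pattern and 805 of those were called. The 8 of these 9 contractile and actin genes that the naming rule gives follow. The differences from PC9 in PC9-BrM4 and PC9-AMG were 0.35 and -0.21 for ACTB (adjusted p between the derivatives 0.000323 with limma), and 1.0 and -0.13 for DAPK1 (0.000312). For the severing and capping proteins they were 0.43 and -0.38 for GSN (0.000289), 0.50 and -0.37 for TMOD2 (0.0274) and 0.70 and -0.23 for TMOD3 (0.00106). They were 0.38 and -0.61 for SVIL (0.00199), 0.60 and -0.59 for TNNI2 (0.00156) and 0.30 and -0.15 for WDR1 (0.00646). A difference between derivatives does not show that each differs from PC9: of these 8 genes, limma called GSN in both comparisons with PC9. The difference of ACTB from PC9 in PC9-AMG reached 0.00 under 1 of 3 other scalings, and its call between the derivatives was lost under median centring (0.0669). The same call was lost for TMOD2 under median centring (0.0570) and without PC9-BrM4 library 1 (0.119), PC9-AMG library 1 (0.0697) or PC9-AMG library 2 (0.0913). For WDR1 it was lost under median centring (0.0827), without the variance trend (0.0552) and without PC9-BrM4 library 1 (0.0511).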

How the results depend on the processing

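No called value of the 10 genes or of the other contractile and actin genes changed sign under the alternatives run; this was not checked for the other genes called. Leaving out 1 library at a time gave 892 to 2383 genes called in PC9-BrM4 against PC9, 131 to 1152 in PC9-AMG against PC9 and 1024 to 2886 between the derivatives. The other contractile and actin genes called ranged from 15 to 39, 0 to 14 and 17 to 42. Genes called in PC9-AMG against PC9 numbered 250 with no filter, 325 without the variance trend and 617 from the table over all libraries (1096 as reported), and between the derivatives 1799 with no filter (2720). Of the contractile and actin genes, 21 with no filter and 19 without trend were called in PC9-BrM4 against PC9 (37), and 21 and 18 between the derivatives (33). In PC9-AMG against PC9 there were 4 under median centring, 2 with no filter, 5 from FPKM, 2 without trend and 3 from the table over all libraries (12). Median centring moved the share of calls that were higher from 60.5% to 41.5%, from 49.0% to 61.1% and from 33.9% to 64.1% in the 3 comparisons, over all genes; the cause was not tested. With the replicate block 2483, 1298 and 2905 genes were called. Deviations of same-numbered libraries correlated by -0.0388 to 0.0292, so the numbers were not taken to pair them. Of 189 values of the 10 genes per comparison, 15, 12 and 15 moved beyond the replicate SD. Depth in reads is unknown, so no counting error can be given for low genes such as TNNT3 and MYLK.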
